A study of Homo sapiens with 6 samples.

Results

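The kinases MEK1 and MEK2, the kinase ERK1, the ribosomal S6 kinases RSK1 and RSK2, the related kinases MSK1 and MSK2, and the inhibitors SPRED1 and Sprouty2 were followed at the RNA level in MDA-MB-231, a human triple-negative breast cancer line. Their 9 genes were chosen by name (MAP2K1, MAP2K2, MAPK3, RPS6KA1, RPS6KA3, RPS6KA4, RPS6KA5, SPRED1 and SPRY2), and each was found as 1 row that names no other gene, among 26341 single-gene rows and 66381 rows in all. The series compared 3 libraries of MDA-MB-231 cells labelled mimic with 3 labelled control. A mimic is a short RNA duplex transfected to stand in for a natural microRNA. The series title describes miR-5001-5p as raised by TNF-α and names MNK2a and p38 MAPK as inhibited, but the labels do not say which microRNA the mimic copies. The design asks which genes and pathways respond to the mimic. The labels give no dose, no time after transfection and no sequence for what either group received. Titles of the control libraries carry the letters nc without an explanation. The labels do not say whether replicates were separate cultures, so p-values measure only the spread between these libraries, which may be technical.

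In this pathway an active RAS protein recruits RAF kinases, RAF phosphorylates MEK1 and MEK2, and these phosphorylate the ERK kinases. ERK then activates RSK in the cytoplasm and, together with p38, MSK in the nucleus. SPRED and Sprouty proteins restrain the route from receptor to RAF and are themselves often induced by ERK activity. MDA-MB-231 cells carry activating mutations in this pathway, so it is known to be active in this line without added growth factor. RNA levels say nothing of the phosphorylation that sets kinase activity.

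The microRNA named in the series title is shown with its seed, bases 2 to 8. The windows below it are from both members that passed the test described further on, so they were picked by outcome. Whether a match bears on the level of either gene was not tested. This microRNA lies at chr2:232550530-232550553 on the minus strand, and the sequence is that of RefSeq on GRCh38.p14, with the seed in capitals.
hsa-miR-5001-5p: aGGGCUGGacucagcggcggagcu
The seed match in an RNA, CCAGCCC, was searched on the transcript strand of the longest annotated 3′ UTR of each gene in GENCODE 29. The sequences below are 28 bases around each match, with the match in capitals, at chr16:30114635-30114662 on the minus strand for MAPK3 and chr1:26574314-26574341 on the plus strand for RPS6KA1, both on GRCh38.
MAPK3: gacactgtgcCCAGCCCggaccttggca
RPS6KA1: ggggaagctgCCAGCCCagaacacccct

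MAPK3 and RPS6KA1 have 1 match each, in 3′ UTRs of 636 and 824 bases. The other 6 members that were tested had none, and RPS6KA5, which was not tested, had 2 in an annotated 3′ UTR of 24212 bases. The match is common: 23.1% of 9014 tested genes with a 3′ UTR held it, and so did 15.9% of genes with a 3′ UTR of about the length of MAPK3 and 18.4% of those of about the length of RPS6KA1. Across genes, 13% of those with the match and 8.02% of those without it were called lower, and 11.7% and 16.5% were called higher. These groups of genes were not matched for 3′ UTR length or base content. Among the genes around the pathway described further on, 8 of 23 tested held the match, of which 1 was lower (GAB1) and 2 were higher (MRAS and PTPN11). Of the ERK output genes 6 of 20 held it, with 0 lower and 1 higher (ETV1).

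Another pair of heptamers, AGTACAA and GTACAAA, was taken from an earlier scan of these same fold changes, so a count of them is no independent evidence. They were present in 17.2% of tested genes, of which 2.58% were called lower, against 10.6% of genes with neither. Among the 8 tested members only RPS6KA3 held one. A match is a description of the letters in these windows and not evidence of a bound site.

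Libraries held 31643826 to 32363456 counts each, and the 9 members had 361 to 6868 counts per library, so counting alone gave an error of 1.21% to 5.26% of a single value, while the coefficient of variation of members within a group was 1.36% to 10.0%. Levels below are FPKM, the count scaled by row length and by the library's total, as deposited. Fold changes are from edgeR with TMM scaling, mimic minus control, over 11260 rows with at least 1 FPKM in at least 3 libraries. Scaling libraries to their totals instead moved the median log2 fold change of all tested rows from -0.01 to -0.09, so FPKM place mimic libraries slightly lower than the fitted changes do. MKNK2, the gene of the MNK2 kinase in the series title, was 2.13-fold lower in the mimic group (edgeR adjusted p = 0.0034). The line's markers VIM, CD44, EGFR, AXL and MSN summed to 906 to 927 FPKM in control and 1047 to 1109 in mimic. Of 6 genes that the line has low or absent, ERBB2, CDH1, EPCAM and GATA3 summed to 5.97 to 6.49 FPKM in control and 5.25 to 6.12 in mimic, and ESR1 and PGR gave no value. PTPRC, PECAM1 and ALB, of other cell types, summed to 0.016 to 0.066 FPKM in control and 0.131 to 0.165 in mimic, CD3E gave no value, and PTPRC was at 0 in 1 library of each group. ALB was at 0 in all 3 control libraries. The part of these shifts in the results below was not tested.

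Of the 8 members tested, 2 were lower and 0 higher in the mimic group, MAPK3 and RPS6KA1 being the lower ones (edgeR, Benjamini-Hochberg adjusted p). Over all tested rows 8.63% were called lower and 13.6% higher. The members were chosen with earlier results of these data known, so their count is not independent of the fold changes. In bulk samples such as these, fewer cells of a type and less RNA per cell cannot be told apart. At an unadjusted p under 0.05, 3 members were lower and 1 was higher, against 16.8% and 19.6% of all rows. DESeq2 called 2 lower and 0 higher, against 11.3% and 15.7% of all rows. The limma test on log2(FPKM + 1) called 4 lower and 0 higher, against 15.2% and 10% of all rows. The median log2 fold change of the 8 was -0.06, against -0.01 over all tested rows. With libraries scaled to their totals, the MEK genes MAP2K1 and MAP2K2 passed too, which made 4 lower, against 15.8% of all rows under that scaling. The count was 1, RPS6KA1 alone, without control replicate 1, control replicate 3, mimic replicate 1 or mimic replicate 2, where 4.69%, 4.27%, 6.16% and 5.67% of all rows were called lower. It was 3 without mimic replicate 3, where MAP2K2 passed and 7.56% of all rows were lower.

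**Figure D1:**
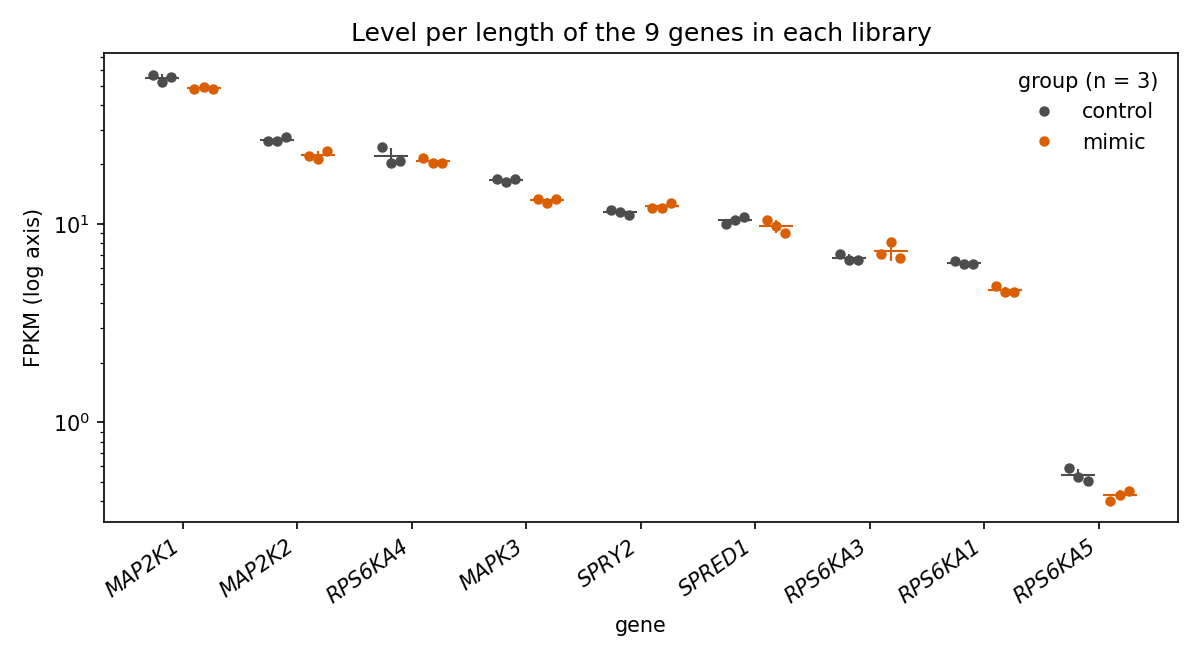
FPKM on a log axis for each of the 9 genes, in the 3 control libraries (grey) and 3 mimic libraries (orange), with the mean and SD as a bar. MAP2K1 is at the top of both groups and RPS6KA5 at the bottom, and the orange points of RPS6KA1 and MAPK3 lie below the grey ones.

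Per unit of length, the order from high to low was MAP2K1, MAP2K2, RPS6KA4, MAPK3, SPRY2, SPRED1, RPS6KA3, RPS6KA1 and RPS6KA5 in both groups. The mean FPKM ran from 54.6 to 0.542 in control and from 48.5 to 0.429 in mimic. Within control no neighbours in this order had overlapping ranges. Within mimic only MAP2K2 and RPS6KA4 did. The row lengths behind FPKM equal the merged exon length in GENCODE 29 for 6 of the 9 genes. For RPS6KA5 the row was 27896 bases long, most of it the annotated 3′ UTR, so its FPKM depends on that length.

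MAP2K1 encodes MEK1, a kinase that phosphorylates ERK on both threonine and tyrosine. It lies at chr15:66386817-66492312 on the plus strand of GRCh38. FPKM were 56.5, 51.9 and 55.4 in control and 48.2, 49.2 and 48.0 in mimic. Each mimic library was below each control library. With TMM scaling, however, the nearest pair of libraries came to 196 and 195 CPM, the TMM-scaled share of counts, and the log2 fold change was -0.09 ± 0.05 (SE, edgeR adjusted p = 0.195), with a 95% interval of -0.20 to 0.02. Scaled to library totals it was -0.17 and passed (adjusted p = 0.0367). Its exons overlap those of SNAPC5 by 216 bases and of AC116913.1 by 432 bases, both on the other strand, and reads there could not be told apart because the strandedness is not given in the sources used here. The processed copy MAP2K1P1 held 12 to 35 counts per library, far below MAP2K1's lowest count of 5808.

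MAP2K2 encodes MEK2, the close relative of MEK1, and lies at chr19:4090321-4124129 on the minus strand. FPKM were 26.1, 26.2 and 27.5 in control and 22.1, 21.3 and 23.4 in mimic, with no overlap between groups. The log2 fold change was -0.18 ± 0.06 (SE), with a 95% interval of -0.31 to -0.05, and missed the threshold over all tested rows (edgeR adjusted p = 0.0608). Scaled to library totals the change was -0.26 and passed (adjusted p = 0.0156), and it also passed over rows of at least 5 FPKM (-0.21, adjusted p = 0.0262) and without mimic replicate 3 (-0.22, adjusted p = 0.0381). The ratio of MAP2K1 to MAP2K2, which no library scaling can move, was 2.16, 1.98 and 2.01 in control and 2.18, 2.32 and 2.06 in mimic. The groups overlapped in that ratio (exact two-sided permutation p = 0.2).

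MAPK3 encodes the kinase ERK1 and lies at chr16:30114105-30123506 on the minus strand. FPKM were 16.9, 16.3 and 17.0 in control and 13.3, 12.8 and 13.4 in mimic. The groups did not overlap, and the lowest control library stood well above the highest mimic library. MAPK3 was 1.20-fold lower in the mimic group, with a log2 fold change of -0.26 ± 0.06 (SE, edgeR adjusted p = 0.0183) and a 95% interval of -0.40 to -0.13. The direction held in all 6 fits that left out 1 library, with log2 fold changes of -0.27 to -0.24, but the adjusted p was 0.0691 without control replicate 1, 0.0689 without control replicate 3, 0.0523 without mimic replicate 1 and 0.055 without mimic replicate 2. With no filter on low values the adjusted p was 0.0881.

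RPS6KA1 encodes RSK1, a kinase activated by ERK that phosphorylates ribosomal protein S6 and other substrates, and lies at chr1:26529761-26575030 on the plus strand. FPKM were 6.54, 6.33 and 6.32 in control and 4.87, 4.53 and 4.54 in mimic. The 3 mimic libraries lay below all controls, and the gap between groups was far wider than the spread within either. RPS6KA1 was 1.30-fold lower in mimic, with a log2 fold change of -0.38 ± 0.07 (SE, edgeR adjusted p = 0.00879) and a 95% interval of -0.54 to -0.22. It was the member with the smallest p. It passed in all 6 fits that left out 1 library (adjusted p 0.0204 to 0.0391) and under all 9 other settings (adjusted p 0.000134 to 0.0304).

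RPS6KA3 encodes RSK2, the close relative of RSK1, and lies at chrX:20149911-20267519 on the minus strand. FPKM were 7.08, 6.61 and 6.62 in control and 7.03, 8.15 and 6.73 in mimic, with mimic replicate 2 the highest and the groups overlapping on this scale. The log2 fold change was 0.19 ± 0.08 (SE, edgeR adjusted p = 0.158), with a 95% interval of -0.01 to 0.38. Without mimic replicate 2 it was 0.10. The ratio of RPS6KA3 to RPS6KA1 was 1.08, 1.04 and 1.05 in control and 1.44, 1.80 and 1.48 in mimic. It did not overlap between groups and was 1.48-fold higher in mimic (exact two-sided permutation p = 0.1, the smallest that 3 against 3 libraries allow). These ratios of related genes were chosen after the members' values were seen. Per length, RSK2 RNA was thus slightly more abundant than RSK1 RNA in each control library, and by a wider margin in each mimic library. RPS6KA2, which encodes RSK3, was counted only in a row merged with RNASET2 and AL159163.1 and gets no value of its own. RPS6KA6, which encodes RSK4, was at 1.34 ± 0.166 FPKM in control and 1.17 ± 0.115 in mimic (SD, n = 3 each) and did not pass (edgeR adjusted p = 0.598).

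**Figure D2:**
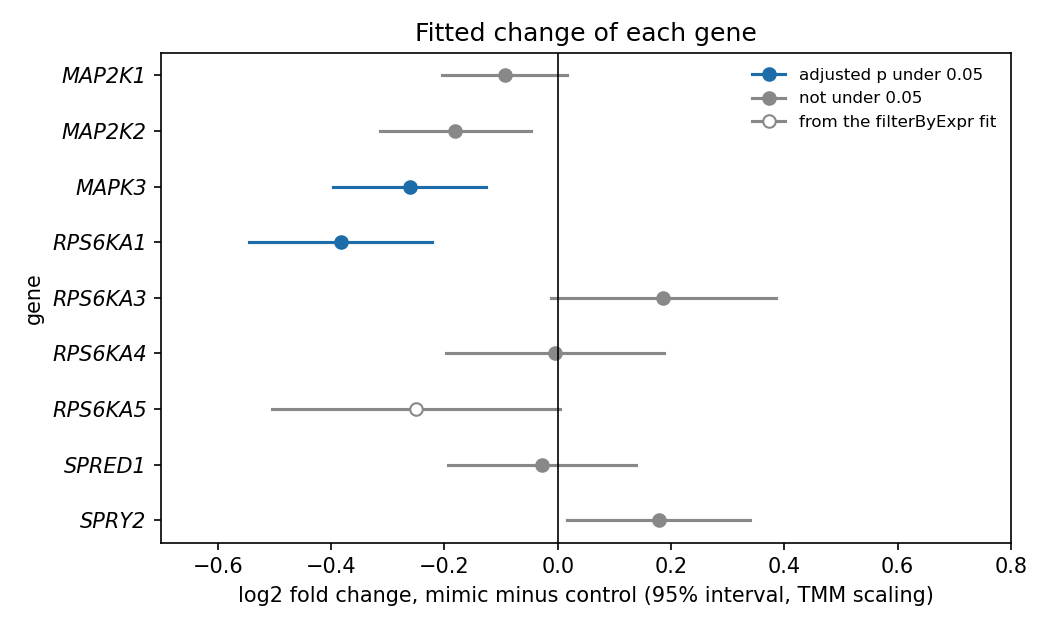
Log2 fold change, mimic minus control, with its 95% interval for each of the 9 genes; blue marks an edgeR adjusted p under 0.05 and the open point is RPS6KA5 from the fit over 15204 rows. Among the 8 tested genes the intervals of MAPK3 and RPS6KA1 lie lowest. That of RPS6KA5, not tested, reaches from -0.50 to 0.0048. The interval of RPS6KA3 lies mostly above 0 and that of SPRY2 wholly above 0.

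RPS6KA4 encodes MSK2, a nuclear kinase that ERK and p38 activate and that phosphorylates CREB and histone H3, and lies at chr11:64359148-64372215 on the plus strand. FPKM were 24.6, 20.4 and 20.9 in control and 21.5, 20.3 and 20.4 in mimic. Control replicate 1 was the highest and the other five libraries lay close together. The log2 fold change was -0.0045 ± 0.08 (SE, edgeR adjusted p = 0.977), with a 95% interval of -0.20 to 0.19. Its sign turned without control replicate 1, to 0.09, and in 4 other fits.

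RPS6KA5 encodes MSK1, the relative of MSK2, and lies at chr14:90847862-91060636 on the minus strand. It was below the filter of 1 FPKM and so was not among the tested members. FPKM were 0.590, 0.531 and 0.505 in control and 0.403, 0.431 and 0.453 in mimic, from 446 to 533 and 361 to 407 counts. All mimic libraries were below all control libraries. In a fit over the 15204 rows that edgeR's filterByExpr keeps, its log2 fold change was -0.25 ± 0.11 (SE, adjusted p = 0.173), with a 95% interval of -0.50 to 0.0048, and 5.74% of all rows were called lower in that fit. Its exons overlap those of DGLUCY on the other strand by 304 bases. DGLUCY had a log2 fold change of -0.33 ± 0.17 (SE, edgeR adjusted p = 0.21), and how far its reads enter the RPS6KA5 count was not tested.

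SPRED1 encodes a membrane protein that keeps RAF from being activated by RAS, and lies at chr15:38252326-38357249 on the plus strand. FPKM were 10.0, 10.5 and 10.9 in control and 10.4, 9.82 and 8.99 in mimic, and the groups overlapped. The log2 fold change was -0.03 ± 0.07 (SE, edgeR adjusted p = 0.808), with a 95% interval of -0.19 to 0.14. Its sign turned without control replicate 3 and without mimic replicate 3. Its relative SPRED2 rose from 9.20 ± 1.26 to 12.4 ± 0.914 FPKM (SD, n = 3 each; log2 fold change 0.51 ± 0.11, edgeR adjusted p = 0.0175). The ratio of SPRED1 to SPRED2 was 1.00, 1.07 and 1.41 in control and 0.775, 0.819 and 0.763 in mimic, without overlap (exact two-sided permutation p = 0.1).

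SPRY2 encodes Sprouty2, a feedback inhibitor of receptor signalling to RAS, and lies at chr13:80335976-80340951 on the minus strand. FPKM were 11.8, 11.5 and 11.1 in control and 12.04, 12.07 and 12.75 in mimic. The groups did not overlap, but the nearest libraries were close. The log2 fold change was 0.18 ± 0.07 (SE), with a 95% interval of 0.02 to 0.34, and did not pass over all tested rows (edgeR adjusted p = 0.106). It was 0.10 with libraries scaled to their totals. SPRY4 varied more, with 17.5, 21.4 and 28.9 FPKM in control and 30.2, 23.4 and 40.6 in mimic (edgeR adjusted p = 0.15).

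With TMM scaling, 6 of the 8 tested members had groups that did not overlap, 4 lower and 2 higher in mimic, and RPS6KA5, not tested, was also lower without overlap. Over all tested rows 42.1% had no overlap, 20.3% lower and 21.8% higher. Exact permutation of the 3 against 3 libraries gave each of the 7 genes p = 0.1, and no smaller value was possible.

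**Figure D3:**
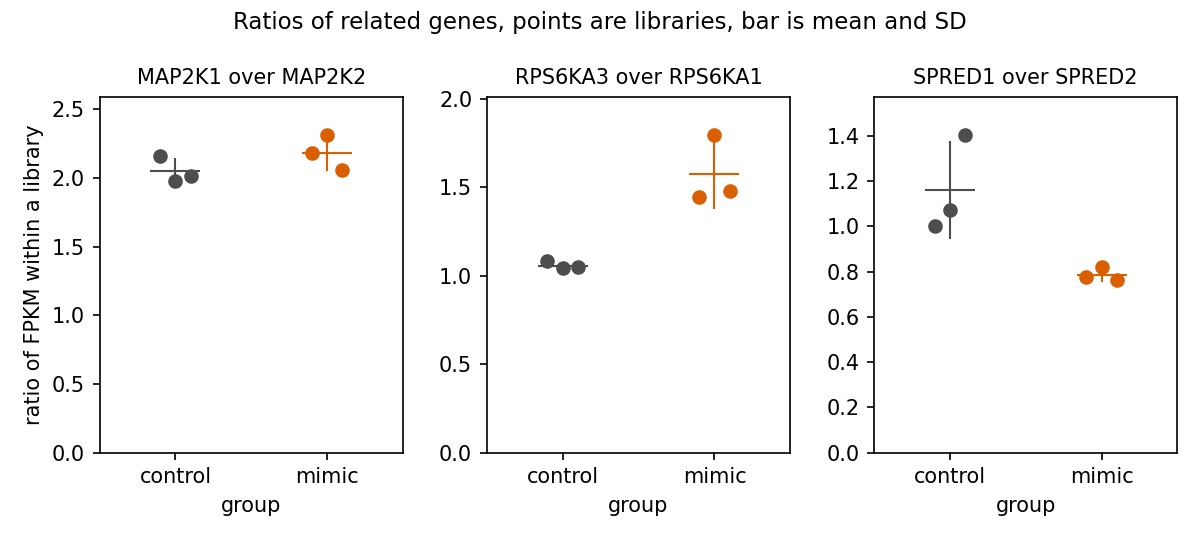
Ratio of FPKM of 2 related genes within each library, for 3 pairs, with 3 control (grey) and 3 mimic (orange) libraries and their mean and SD. The ratio of RPS6KA3 to RPS6KA1 is higher in all mimic libraries, that of SPRED1 to SPRED2 is lower, and that of MAP2K1 to MAP2K2 overlaps.

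The genes around the 9 were taken from a list of 30 further genes of RAS, RAF, RSK and their regulators, of which 25 had a row of their own and 23 were tested. Of these, 8 were higher and 3 lower in mimic, with a median log2 fold change of 0.23, against 13.6% and 8.63% and a median of -0.01 over all tested rows. The list was chosen with earlier results of these data known, NRAS being set down beforehand as a change reported for the series. Its counts are therefore not independent of these fold changes. The count of 11 became 5 without control replicate 1, where 10.7% of all rows were higher and 4.69% lower. It became 6 without control replicate 2, where 10.6% were higher and 5.05% lower. It was 7 without control replicate 3 and 7 without mimic replicate 2, where 9.89% and 10.5% of all rows were higher. With DESeq2, 10 were higher and 3 lower, against 15.7% and 11.3% of all rows. With limma on log2(FPKM + 1), 6 were higher and 2 lower, against 10% and 15.2%. With libraries scaled to their totals 6 were higher and 3 lower, against 1136 and 1783 of 11260 rows. The list's median log2 fold change was then 0.16. SHC1, PPP1CB, KSR1 and RPS6KA2 were counted only in rows merged with neighbours.

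NRAS had the largest fold change among the tested genes of the list. This gene, which encodes a RAS GTPase, had 29.8, 29.1 and 29.9 FPKM in control and 91.2, 96.8 and 87.9 in mimic (log2 fold change 1.71 ± 0.05, edgeR adjusted p = 1.1e-05). The related GTPase genes RRAS2 (log2 fold change 0.75) and MRAS (0.83) rose as well (edgeR adjusted p = 0.00165 and 0.00742). HRAS did not pass (0.23 ± 0.14, adjusted p = 0.293). SHOC2, a scaffold that works with MRAS to activate RAF, rose (1.01 ± 0.21, edgeR adjusted p = 0.0156). Its log2 fold change was about as large without control replicate 1 (1.00, adjusted p = 0.0505) and without control replicate 3 (0.93, adjusted p = 0.0559), where it missed the threshold.

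Of the RAF kinases BRAF did not pass (0.33 ± 0.17, edgeR adjusted p = 0.217), nor did ARAF (-0.0030 ± 0.09, adjusted p = 0.986). LAMTOR3, a scaffold that binds MEK1 and ERK1 on late endosomes, rose from 1.30 ± 0.153 to 2.65 ± 0.195 FPKM (SD, n = 3 each). Summed, the MEK genes had 81.2 ± 2.68 FPKM in control and 70.7 ± 0.616 in mimic (SD, n = 3 each). The sum of RPS6KA1 and RPS6KA3 was 13.2 ± 0.392 in control and 11.95 ± 0.708 in mimic. That of RPS6KA4 and RPS6KA5 was 22.5 ± 2.302 and 21.2 ± 0.638. These sums were not tested, and FPKM place mimic libraries slightly lower than TMM scaling does. With TMM scaling neither MAP2K1 nor MAP2K2 passed (edgeR adjusted p = 0.195 and 0.0608). PTPN11, which encodes the phosphatase SHP2 that promotes RAS activation, was higher (log2 fold change 0.18, edgeR adjusted p = 0.0252), as was SOS2, an exchange factor that loads RAS with GTP (0.28, adjusted p = 0.0263). Each kept the call in 3 of 6 fits without 1 library and under 5 of 9 other settings. Scaled to library totals, PTPN11 (0.10) and SOS2 (0.20) did not pass (edgeR adjusted p = 0.129 and 0.0668). The 3 lower genes of the list were SOS1 (log2 fold change -0.24), PEBP1 (-0.18) and GAB1 (-0.38), named after their values were seen. SOS1 is the paralogue of SOS2, PEBP1 is an inhibitor of RAF kinases and GAB1 is a docking protein. PEBP1 and GAB1 lost the call in all 6 fits without 1 library, and SOS1 in 5.

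Of the 8 higher genes of the list, 7 held AGTACAA or GTACAAA in the 3′ UTR, as did 10 of the 23 tested. Both heptamers came from a scan of these same fold changes, so the counts and shares here are no independent evidence. Over all tested genes 37.4% of those with either heptamer were called higher, against 10.8% of those with neither. The 3 lower genes had neither. Of the 8 tested members, 1 held one, RPS6KA3.

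**Figure D4:**
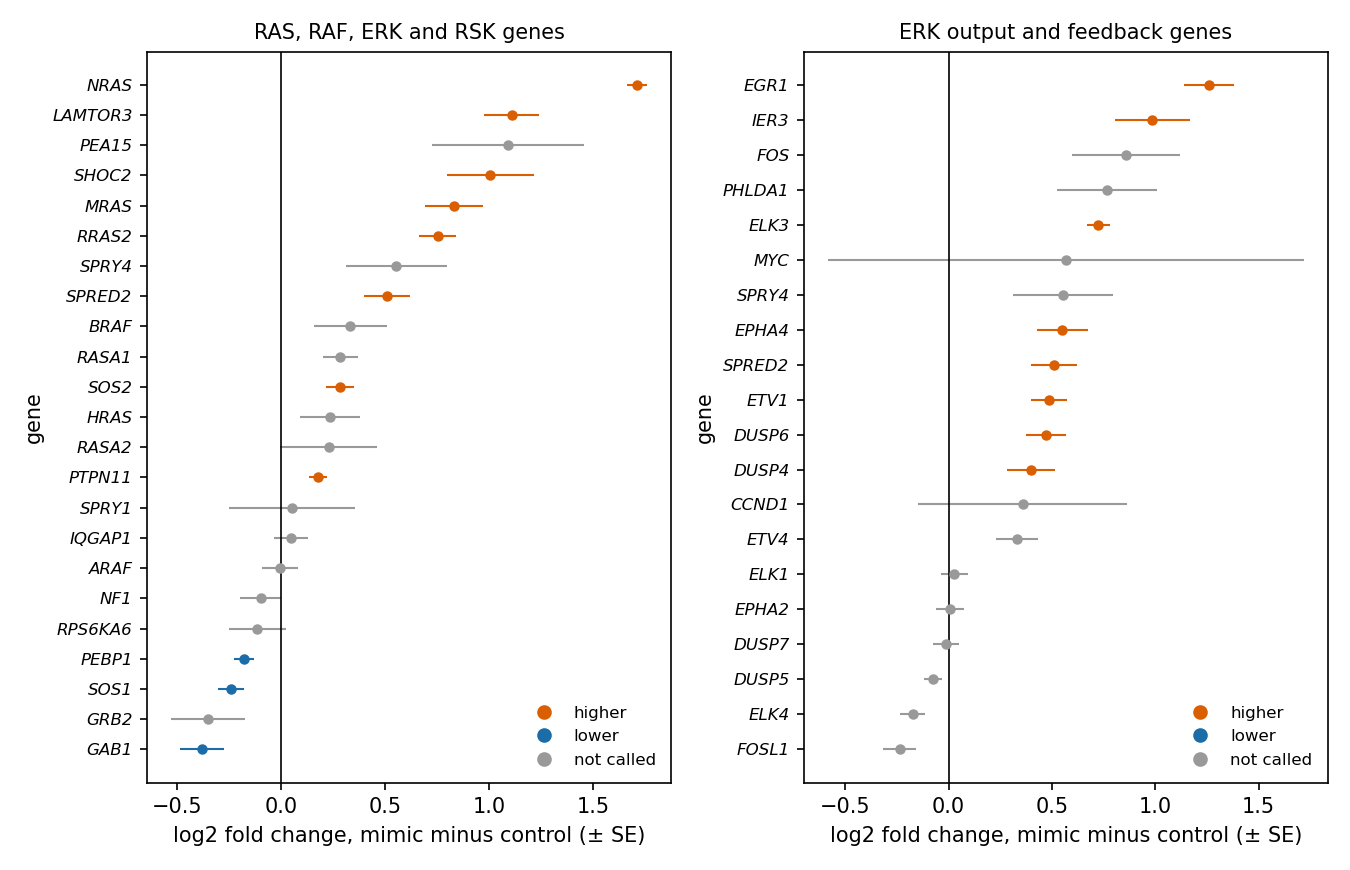
Log2 fold change with SE for the tested genes of the list around the pathway (left) and of the ERK output list (right); orange is higher and blue lower at an edgeR adjusted p under 0.05, grey is not called. NRAS is the highest on the left at 1.71, EGR1 on the right at 1.26.

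Genes that ERK activity is known to induce, or that relay or restrain it, formed a list of 21, of which 20 were tested and ETV5 was counted only in a row merged with DGKG. Of these 8 were higher and 0 lower in mimic with edgeR, against 13.6% and 8.63% of all rows, and the median log2 fold change was 0.48, against -0.01. This list too was chosen with earlier results of these data known. At an unadjusted p under 0.05, 11 were higher and 2 lower, against 19.6% and 16.8% of all rows. DESeq2 called 12 higher and 1 lower, against 15.7% and 11.3%. The limma test on log2(FPKM + 1) called 6 higher and 3 lower, against 10% and 15.2%, so its lower calls were near the share over all rows. The count of 8 became 5 without control replicate 2, where 10.6% of all rows were higher and 5.05% lower. EGR1, an early-response transcription factor, rose from 12.6 ± 1.19 to 28.6 ± 4.02 FPKM (SD, n = 3 each; log2 fold change 1.26 ± 0.12, edgeR adjusted p = 0.000768). ELK3, a transcription factor that ERK phosphorylates, rose from 63.4 ± 2.38 to 99.3 ± 6.13 FPKM (0.72 ± 0.06, adjusted p = 0.00028).

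The phosphatase gene DUSP6, which inactivates ERK and is a standard readout of its activity, had 24.4, 20.7 and 20.6 FPKM in control and 32.2, 27.6 and 26.4 in mimic (log2 fold change 0.47 ± 0.10, edgeR adjusted p = 0.0145). DUSP4 (0.40), ETV1 (0.49), IER3 (0.99), EPHA4 (0.55) and SPRED2 were the other higher genes. SPRED2 and SPRY4 are in this list and in the list around the pathway, so SPRED2 counts among the higher genes of each. DUSP4 kept its call in 1 of 6 fits without 1 library, EPHA4 in 2, DUSP6 in 4 and SPRED2 in 5. FOSL1 did not pass (-0.24 ± 0.08, adjusted p = 0.0726), nor did DUSP5 (-0.08 ± 0.04, adjusted p = 0.273). MYC and CCND1 did not pass either (edgeR adjusted p = 0.761 and 0.652), and both varied widely within groups. Control libraries alone ran from 3.54 to 44.4 FPKM for MYC and from 24.3 to 66.3 for CCND1. The coefficient of variation of CPM was 136% in control and 73.7% in mimic for MYC. For CCND1 it was 60.2% and 58.2%. Of the 8 higher genes 4 held AGTACAA or GTACAAA, against 6 of the 20 tested. That count too is no independent evidence, because the heptamers were taken from these fold changes.

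The genes whose pattern over the 6 libraries was most like that of RPS6KA1, by Pearson's r of log2 CPM among 6082 other single-gene rows of at least 5 FPKM on average, were KIAA0100 (r = 0.999), GCN1 (0.998) and PARS2 (0.998). With 6 libraries in 2 groups such values are easily reached, and 237 rows had r over 0.95. Their log2 fold changes were -0.17, -0.18 and -0.47.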

How the data were processed

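The 6 libraries were made from polyadenylated RNA, per the labels. The submitters' processing notes name cutadapt 1.9, FastQC and build GRCh38; no aligner, counter, annotation release or strandedness is given in the sources used here. The deposited table holds raw counts and FPKM, and the deposited FPKM are the count scaled by a whole row length and the library's total. Rows with no gene name (38792, with 2.46 to 2.70% of counts) did not enter; rows naming several genes were tested but stay out of lists.

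edgeR 4.0.16 (glmQLFit and glmQLFTest, TMM, R 4.3.3) was fitted to counts on rows with at least 1 FPKM in at least 3 libraries, two-sided, with Benjamini-Hochberg adjustment over all 11260 rows and a threshold of 0.05. SE was taken as the absolute log2 fold change over the square root of F. In simulated counts of these 11260 rows, 200 of them changed, calls were made for 4% at 1.25-fold, 24% at 1.5-fold and 80% at 2-fold. These are rates over all rows, not for the members, whose SE was 0.046 to 0.083. Only 200 rows were changed in the simulation, while 2506 were called in the data, so the adjustment was stricter in the simulation. The lowest chi-square per degree of freedom between libraries was 26.9, so none was taken for a repeat of another. Alternatives used DESeq2 1.42.0, limma 3.58.1 on log2(FPKM + 1) and log2(FPKM + 0.1), other scalings and filters, the replicate block and each library left out. For each gene the longest 3′ UTR among basic protein-coding transcripts of GENCODE 29 was used. Members and lists were chosen with earlier results of these data known; some genes of the list around the pathway are not reported here and its counts leave them out. Named genes are the members, called genes of each list (up to 8 by smallest p), MKNK2 and the 3 genes most like the member with the smallest p. Relatives of members, the 3 lower genes of the first list, and HRAS, BRAF, ARAF, FOSL1, DUSP5, MYC and CCND1 were named after their values were seen.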

Additional observations from a re-analysis of the deposited data

How the results depend on the processing

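Among members, RPS6KA1 kept its direction and call in all 15 alternatives, MAPK3 its direction in all 15 and its call in 10, and the directions of MAP2K1, MAP2K2, RPS6KA3 and SPRY2 held in all 15. The number of members called was 2, where 972 of 11260 rows were called lower. It was 4 with libraries scaled to their totals and with limma on log2(FPKM + 1) and log2(FPKM + 0.1). Of all 11260 rows, 1783, 1707 and 1680 were called lower in these fits. The number of members was 1 with no filter, where 726 of 27589 rows were called lower, and 1 to 3 without 1 library. RPS6KA4 turned sign with filterByExpr (log2 fold change 0.0051) and no filter (0.0070), and ran from -0.047 to 0.089 without 1 library; SPRED1 ran from -0.067 to 0.030. For these turns the cause was not tested. The list around the pathway had 11 calls, 5 to 11 without 1 library. The ERK output list had 8, 13 with DESeq2 and 5 to 8 without 1 library. All tested genes had 2506, 1569 to 2206 without 1 library. Same-numbered libraries did not deviate together (r of deviations -0.00863, 0.0599 and -0.0503; 2 of 6 libraries were closest to their own number), so the titles' numbers are not taken as pairs; with the replicate block 2 members, 6 genes of the first list and 1922 of all genes were called. Counting alone gave members an error of 1.21% to 5.26% per value, the precision that depth sets here.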
